A study of Homo sapiens with 4 samples.

Results

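The interferon-stimulated genes examined here are 41 genes of the type I interferon response, namely effector genes, RNA sensors, transcription factors and antigen-processing genes. They were taken by symbol from the 25192 genes of the expression tables, and all 41 were listed there. The values came from RNA-seq of A549, an established human lung adenocarcinoma cell line, extracted 48 h after infection. 2 libraries came from cells infected with the control empty virus (EV), a retrovirus of the pLZRS-IRES-GFP vector that expresses only GFP, and 2 from cells infected with the FCN3 virus, in which the same vector also carries the coding sequence of FCN3 with a V5 tag. FCN3 is a secreted lectin of the complement system. Both viruses were pseudotyped particles made in a packaging cell line and applied with polybrene. Every library thus came from transduced cells, so the comparison is between 2 viruses and gives no level for untransduced cells.

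Interferon-stimulated genes are switched on when a cell detects viral nucleic acid or is exposed to interferon. The sensors RIG-I (gene DDX58) and MDA5 (IFIH1) recognise viral RNA and trigger production of type I and type III interferons. These bind receptors that signal through JAK kinases to STAT proteins, and STAT2 and IRF9 are part of the factor ISGF3. ISGF3 binds the interferon-stimulated response element (ISRE) in the promoters of its target genes, many of whose products block entry, translation, replication or release of viruses. Airway and alveolar epithelial cells mount this response against respiratory viruses.

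The expected counts summed to between 16353554 and 35733735 per library, replicate 1 being sequenced more deeply than replicate 2 for each virus. FCN3 was checked first: its counts were 1 and 0 with EV against 722388 and 448352 with the FCN3 virus. A549 was checked against cell type markers. "Blocked" here means that the replicate number was a term in the fit, and "unblocked" that it was not. The epithelial keratins KRT8 and KRT18 lay between 1612 and 2789 TPM (a level scaled for gene length and depth). The blocked fit called all 5 epithelial markers, KRT8, KRT18 and KRT19 as higher and CDH1 and EPCAM as lower with the FCN3 virus. KRT19 was at 32.6 and 52.4 TPM with EV and 87.2 and 97.9 TPM with the FCN3 virus (log2 fold change 1.24 ± 0.23 SE, edgeR adjusted p = 0.0397 unblocked and 6.18e-20 blocked). CDH1 was at 6.06 and 9.53 TPM with EV and 3.35 and 6.79 TPM with the FCN3 virus (log2 fold change -0.53 ± 0.38 SE, edgeR adjusted p = 0.45 unblocked and 3.23e-06 blocked). EPCAM was low, at 2.66 and 3.65 TPM with EV and 1.09 and 1.61 TPM with the FCN3 virus (log2 fold change -1.12 ± 0.34 SE, edgeR adjusted p = 0.117 unblocked and 0.000165 blocked). Of 5 leukocyte markers 4 were at or under 3 counts in all libraries. CD14, the other one, lay between 0.32 and 1.99 TPM and was lower with the FCN3 virus (log2 fold change -1.31 ± 0.55 SE, edgeR adjusted p = 0.216 unblocked and 0.00226 blocked). Of 5 fibroblast markers 2 were at or under 3 counts in all libraries, DCN being at 0 TPM, and 0 of the 3 tested were called in either fit. The sum of the 5 was 3.65 and 2.82 TPM in the replicate 1 libraries and 8.63 and 8.27 TPM in the replicate 2 libraries. It was mostly COL1A1, at 3.39 and 2.70 TPM in replicate 1 and 8.12 and 7.87 TPM in replicate 2. COL3A1 was also higher in replicate 2 but stayed at or under 0.41 TPM, and PDGFRA lay between 0.06 and 0.13 TPM. The part of these markers in the results was not tested. RNA was measured over whole cultures, so fewer cells with a transcript and less of it per cell cannot be told apart.

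The ISRE was looked for in the RefSeq promoter windows of the members, each running from 250 bases before to 50 bases after an annotated start. A window was listed for 34 of the 41 members, and none for IFIT2, OAS2, OASL, MX2, TRIM22, USP18 and IRF7. The core searched was GAAA, any 2 bases and GAAA again, on either strand (TTTC, any 2 bases and TTTC on the other). It was present in 18 of the 34 windows (52.9%), against 3.65% of all 27305 RefSeq windows and 2.74% of the 9937 windows of genes tested here. The 250 bases before the start are shown for 5 members, picked for unlike patterns of expression. IFIT3, higher with the FCN3 virus, and OAS3, lower with it, passed the test of change only with the replicate block. IFIT1 was high in 1 library and, like ISG15, passed in neither fit. IFI44L was almost silent. Sequences are from RefSeq (table on GRCh38.p14) and were located in GRCh37 by exact match. They read 5′ to 3′ along the gene, with the ISRE core matches in capitals.
IFIT3, chr10:91087504-91087753, plus strand: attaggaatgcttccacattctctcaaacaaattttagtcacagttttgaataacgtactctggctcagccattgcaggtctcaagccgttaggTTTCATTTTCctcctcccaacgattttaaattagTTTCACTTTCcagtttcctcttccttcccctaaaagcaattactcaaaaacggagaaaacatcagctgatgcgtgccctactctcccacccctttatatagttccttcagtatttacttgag
IFIT1, chr10:91152130-91152379, plus strand: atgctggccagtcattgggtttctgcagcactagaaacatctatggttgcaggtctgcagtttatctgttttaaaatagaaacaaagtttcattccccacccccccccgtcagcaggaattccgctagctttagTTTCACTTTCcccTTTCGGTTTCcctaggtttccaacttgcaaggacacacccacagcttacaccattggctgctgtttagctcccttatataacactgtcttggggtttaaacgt
ISG15, chr1:948627-948876, plus strand: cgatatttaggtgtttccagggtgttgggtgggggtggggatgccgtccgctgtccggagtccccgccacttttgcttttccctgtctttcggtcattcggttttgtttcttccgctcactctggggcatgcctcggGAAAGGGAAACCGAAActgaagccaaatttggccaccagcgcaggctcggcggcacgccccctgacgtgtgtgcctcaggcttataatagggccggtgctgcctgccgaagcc
OAS3, chr12:113376029-113376278, plus strand: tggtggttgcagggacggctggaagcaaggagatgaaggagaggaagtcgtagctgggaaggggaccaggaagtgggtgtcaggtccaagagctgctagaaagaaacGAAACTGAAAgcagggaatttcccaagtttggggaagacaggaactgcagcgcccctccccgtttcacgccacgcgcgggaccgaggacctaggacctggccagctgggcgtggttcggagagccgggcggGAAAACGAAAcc
IFI44L, chr1:79085883-79086132, plus strand: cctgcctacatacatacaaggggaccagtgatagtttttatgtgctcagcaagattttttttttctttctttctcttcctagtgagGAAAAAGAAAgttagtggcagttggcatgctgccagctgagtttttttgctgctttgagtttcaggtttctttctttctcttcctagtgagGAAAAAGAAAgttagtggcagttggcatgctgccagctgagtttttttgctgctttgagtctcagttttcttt
Each of the 5 stretches held 2 matches, and those of ISG15 overlapped. A match is a description of letters and not of binding.

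At 48 h, 9 of the 41 members were too low to test. IFI44L, RSAD2, MX2 and EPSTI1 had at most 3 counts in every library, and EPSTI1 had 0 in all of them. RSAD2 (viperin, which makes a chain-terminating nucleotide) had 1 and 0 against 0 and 2 counts. IFI44L had a single count, in EV replicate 1. MX2, a dynamin-like inhibitor of retroviruses, had 0 and 0 against 1 and 1 counts. BST2 (tetherin, which holds budding virions at the cell surface) had 1 and 0 against 5 and 1 counts, OAS2 had 3 and 1 against 5 and 7, IFI44 had 10 and 1 against 15 and 7, and IFI27 had 6 and 3 against 9 and 2. XAF1, an antagonist of the apoptosis inhibitor XIAP, had 0 counts in 3 libraries and 5 in FCN3 replicate 2. The highest of these 9 genes in any library was at 0.93 TPM. With 3 counts as the floor, levels under 0.084 to 0.183 counts per 1000000 could not be seen.

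The other 32 members passed edgeR's filter on low counts. The most abundant were OAS3, TAP1, PSMB8 and UBE2L6, at mean levels over the 4 libraries of 34.9, 30.1, 29.9 and 27.3 TPM. Summed over the 41 members, the level was 344 and 327 TPM in EV replicates 1 and 2 and 325 and 341 TPM in FCN3 replicates 1 and 2, so the groups overlapped. TPM has a fixed total per library, and FCN3 itself took 41617.5 and 44729.6 TPM with the FCN3 virus. This lowers the TPM of all other genes in those libraries. The median log2 fold change of all tested genes was 0.02 in edgeR and -0.07 on log2(TPM + 1). Between 26 and 30 members reached 1 TPM in a library.

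**Figure D1:**
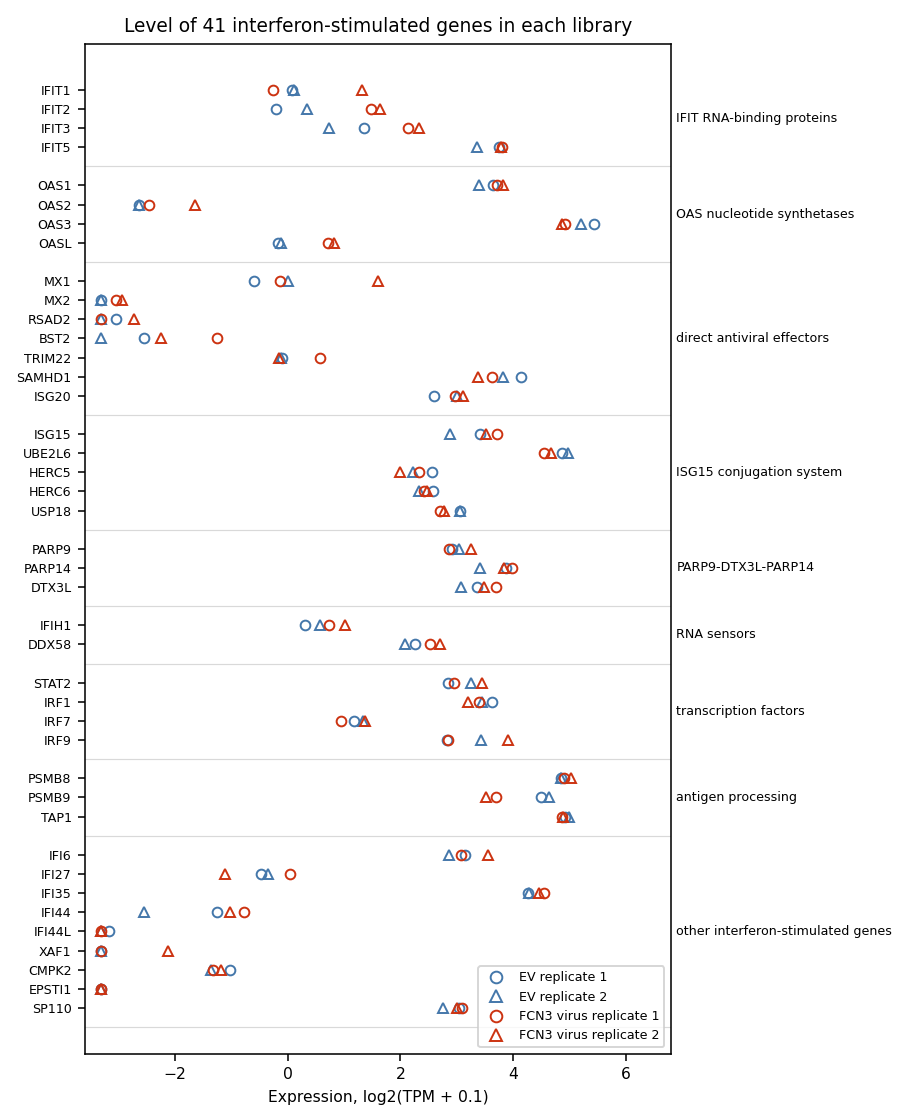
Level of each of the 41 members in each library, as log2(TPM + 0.1), grouped by role; blue marks are EV, red marks the FCN3 virus, circles replicate 1 and triangles replicate 2. The 9 members under the filter sit at the left, none above 0.93 TPM, and in IFIT1, MX1 and IRF9 the red triangle (FCN3 replicate 2) lies to the right of the other 3 marks.

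The comparison asked which members differed between cells with the FCN3 virus and cells with the empty virus. At an FDR of 0.01 over all 14099 genes tested, edgeR's quasi-likelihood test called 0 of the 32 tested members, beside 0.965% of all tested genes (0.738% higher and 0.227% lower with the FCN3 virus). At an FDR of 0.05 it called 2, IFIT2 and PSMB9, against 7.19% of all tested genes. At an unadjusted p under 0.05, 7 of the 32 passed, against 25.1% of all genes. DESeq2 called 1 member, IFIT2, as higher, where 7.86% of its tested genes were called (4.43% higher and 3.43% lower). Libraries were then paired by replicate number, as a block in the fit. edgeR called 12 of the 32 members (37.5%) in this way, against 36.2% of all tested genes, a share near the background. Of these, 9 rose (28.1%, against 19.1% of all genes) and 3 fell (9.38%, against 17.1%). The block in DESeq2 left 5 members called, namely IFIT2, IFIT3, DTX3L, OAS3 and PSMB9, against 16.2% of its tested genes (8.1% higher and 8.08% lower). The other members that edgeR called with the block did not pass in DESeq2 with the block. Their DESeq2 adjusted p were 0.0177 (PARP14), 0.0427 (DDX58), 0.0614 (SAMHD1), 0.0857 (MX1), 0.126 (IFIT5), 0.197 (OASL) and 0.302 (IFI35).

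The direction leaned upward. Without the block, 24 of the 32 members (75%) had a log2 fold change above 0, against 51.9% of all tested genes, and their median was 0.31, against 0.02 over all tested genes. Other scalings gave between 21 and 24 members above 0, the changes of sign being in IRF7, HERC6, TAP1 and CMPK2, all of which were close to 0. In 21 members (65.6%) the CPM (counts scaled for depth) of the 2 groups did not overlap, against 54.5% of all tested genes, and in 16 of them both FCN3 libraries were the higher ones, against 28% of all genes. The members' median rests in part on FCN3 replicate 2, without which it was 0.16. Within replicate number 1 the FCN3 virus was the higher library in 21 members, against 52.7% of all tested genes, and within number 2 in 24, against 50.5%. In 20 members (62.5%) it was the higher one in both, against 41.7% of all genes. The median difference was 0.16 between the libraries of replicate number 1 and 0.28 between those of number 2.

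**Figure D2:**
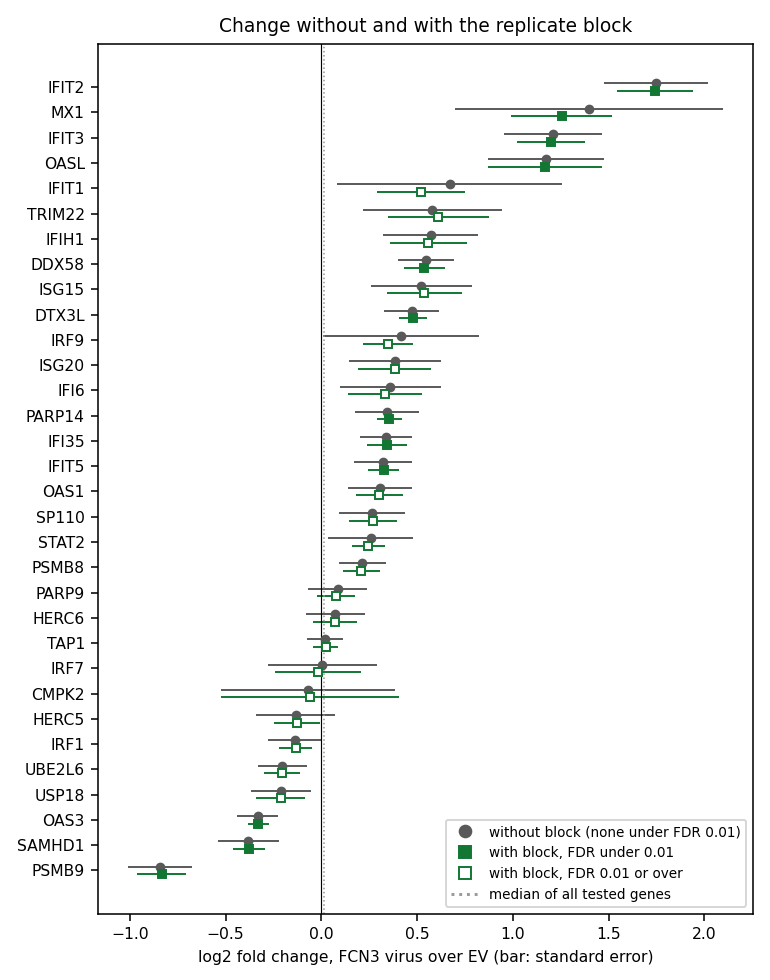
log2 fold change (FCN3 virus over EV, with its standard error) of the 32 tested members in edgeR, without the replicate block (grey circles) and with it (green squares, filled where the FDR was under 0.01); the dotted line is the median of all tested genes, 0.02. IFIT2, MX1, IFIT3 and OASL had log2 fold changes above 1 in both fits, and PSMB9 was the lowest, at -0.84 without the block.

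IFIT genes encode proteins with tetratricopeptide repeats that bind foreign or incompletely capped RNA and hold back its translation. 4 of them lie in a cluster on the plus strand of chromosome 10 of GRCh37, in the order IFIT2 (91043451 to 91069028), IFIT3 (91087064 to 91137230), IFIT1 (91152303 to 91166244) and IFIT5 (91174325 to 91181362). IFIT1, IFIT2 and IFIT3 overlap LIPA, which is on the minus strand. Among the 32 tested members, IFIT2 had the largest log2 fold change in edgeR. It was at 0.76 and 1.17 TPM in EV replicates 1 and 2 and at 2.70 and 3.0 TPM with the FCN3 virus, from 50 and 36 against 181 and 116 counts. Each FCN3 library exceeded both EV libraries. Its log2 fold change was 1.75 ± 0.27 (SE, edgeR adjusted p = 0.0262), and 1.74 with the replicate block (adjusted p = 1.36e-10). It was the member that DESeq2 called without the block (adjusted p = 0.00127).

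IFIT3, the partner that stabilises IFIT1 and raises its RNA binding, was at 2.44 and 1.56 TPM in EV cells and at 4.28 and 4.90 TPM with the FCN3 virus. The groups again did not overlap. The log2 fold change was 1.21 ± 0.25 (SE, edgeR adjusted p = 0.0538 unblocked and 1.19e-07 blocked). IFIT5, the member that was highest in level, was at 13.4 and 10.2 against 13.9 and 13.7 TPM, with a log2 fold change of 0.32 ± 0.15 (SE, edgeR adjusted p = 0.266 unblocked and 0.000877 blocked). Without EV replicate 2 it was 0.15.

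IFIT1, a cap-sensing inhibitor of translation and the member most used as a readout of interferon, went another way. It was at 0.95 and 0.98 TPM in EV cells, at 0.73 TPM in FCN3 replicate 1 and at 2.39 TPM in FCN3 replicate 2. FCN3 replicate 1 was therefore the lowest of the libraries and FCN3 replicate 2 the highest. Within replicate number 1 the difference was -0.25 in log2 CPM, and within number 2 it was 1.35. The log2 fold change over both was 0.67 ± 0.59 (SE, edgeR adjusted p = 0.537 unblocked and 0.0593 blocked), and without FCN3 replicate 2 it was -0.28. The promoter sequences of IFIT3 and IFIT1 shown above hold the same number of ISRE core matches.

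OAS genes encode synthetases that are activated by double-stranded RNA and make the messenger that switches on RNase L. Their members moved in both directions. OAS3 was at 43.5 and 36.7 TPM in EV cells and at 30.3 and 29.1 TPM with the FCN3 virus, with both FCN3 libraries below both EV libraries. Its log2 fold change was -0.33 ± 0.11 (SE, edgeR adjusted p = 0.132 unblocked and 1.94e-06 blocked). OASL, a relative without synthetase activity that enhances RIG-I signalling, was at 0.79 and 0.82 TPM in EV cells and at 1.53 and 1.66 TPM with the FCN3 virus. The replicates of OASL were close and the groups stood apart, with a log2 fold change of 1.17 ± 0.30 (SE, edgeR adjusted p = 0.0832 unblocked and 0.000941 blocked), from 29 and 13 against 59 and 37 counts. OAS1 did not pass either fit, at 12.5 and 10.4 against 12.99 and 13.99 TPM (log2 fold change 0.31 ± 0.17 SE).

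Among direct antiviral effectors, MX1, a dynamin-like GTPase that blocks influenza and other viruses, was at 0.56 and 0.90 TPM in EV cells, at 0.81 TPM in FCN3 replicate 1 and at 2.92 TPM in FCN3 replicate 2. EV replicate 2 lay above FCN3 replicate 1, so the groups overlapped, while within each replicate number the FCN3 virus was the higher library (by 0.75 and 1.61 in log2 CPM). The log2 fold change was 1.40 ± 0.70 (SE, edgeR adjusted p = 0.289), and 1.26 with the block (adjusted p = 8.77e-05). Without FCN3 replicate 2 it was 0.43 (adjusted p = 0.752 in edgeR). SAMHD1, which restricts retroviruses by degrading deoxynucleotides, was at 17.5 and 14.1 TPM in EV cells and at 12.2 and 10.35 TPM with the FCN3 virus, both FCN3 libraries being the lower ones. Its log2 fold change was -0.38 ± 0.16 (SE, edgeR adjusted p = 0.22 unblocked and 0.0002 blocked). Its counts were not whole in 3 libraries, so RSEM divided some reads between it and other genes. ISG20, an exonuclease, was at 5.94 and 7.88 against 7.77 and 8.53 TPM, and TRIM22 at 0.83 and 0.82 against 1.38 and 0.80 TPM. Neither passed in either fit.

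ISG15 is a ubiquitin-like protein that is joined to other proteins by UBE2L6, its conjugating enzyme, and HERC5, its main ligase, and removed by USP18, which also shuts off the interferon receptor. No member of this system passed the test in either fit. ISG15 was at 10.5 and 7.22 TPM in EV cells and at 13.1 and 11.4 TPM with the FCN3 virus, a log2 fold change of 0.52 ± 0.26 (SE, edgeR adjusted p = 0.292 unblocked and 0.021 blocked). The enzymes lay on the other side of 0 or close to it: UBE2L6 was at 29.0 and 31.5 against 23.3 and 25.6 TPM (log2 fold change -0.20 ± 0.13 SE), and USP18 at 8.21 and 8.19 against 6.44 and 6.78 TPM (-0.21 ± 0.15 SE). In both, the FCN3 libraries were the lower ones, by less than the test could call. HERC5 and HERC6 overlapped between the groups, with log2 fold changes of -0.13 and 0.07.

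PARP9, PARP14 and DTX3L encode ADP-ribosyltransferases and a ubiquitin ligase of the antiviral response, the ligase DTX3L acting in a complex with PARP9. DTX3L was at 10.2 and 8.37 TPM in EV cells and at 12.9 and 11.2 TPM with the FCN3 virus, with no overlap. Its log2 fold change was 0.47 ± 0.14 (SE, edgeR adjusted p = 0.118 unblocked and 3.56e-07 blocked). PARP14 was at 14.7 and 10.6 against 15.7 and 14.25 TPM, a log2 fold change of 0.34 ± 0.17 (SE, edgeR adjusted p = 0.277 unblocked and 1.3e-05 blocked). Without EV replicate 2, it was 0.13. PARP9, which shares its promoter region and overlaps DTX3L on the opposite strand of chromosome 3, was at 7.46 and 8.17 against 7.16 and 9.48 TPM, and its groups overlapped. Counts of PARP9 and DTX3L were not whole in any library, so their division is uncertain.

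Both RNA sensors lay higher with the FCN3 virus. DDX58 was at 4.66 and 4.12 TPM in EV cells and at 5.64 and 6.44 TPM with the FCN3 virus, with no overlap and a log2 fold change of 0.55 ± 0.15 (SE, edgeR adjusted p = 0.0903 unblocked and 3.3e-05 blocked). IFIH1 was at 1.14 and 1.39 against 1.56 and 1.91 TPM, with a log2 fold change of 0.57 ± 0.25 (SE, edgeR adjusted p = 0.232 unblocked and 0.0187 blocked), and so did not pass.

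None of the 4 transcription factors passed in either fit. IRF1, a factor that responds early to interferon and other stimuli, was the most abundant of them and was at 12.3 and 10.8 against 10.45 and 9.11 TPM (log2 fold change -0.14 ± 0.14 SE). IRF7, which amplifies interferon production, was at 2.16 and 2.43 against 1.82 and 2.5 TPM, with a log2 fold change of 0.0049. STAT2 and IRF9, components of ISGF3, differed more between replicate numbers than between viruses. STAT2 was at 7.12 and 9.41 against 7.60 and 10.8 TPM, and IRF9 at 7.03 and 10.65 against 7.08 and 14.95 TPM. In both genes the replicate 2 libraries lay above the replicate 1 libraries in each group. Within each number the FCN3 virus was the higher library, by 0.21 and 0.28 in log2 CPM for STAT2 and 0.13 and 0.57 for IRF9. With the block, the edgeR adjusted p were 0.017 (STAT2) and 0.0263 (IRF9). The log2 fold changes between the viruses were 0.26 (standard error 0.22) and 0.42 (standard error 0.41), and without FCN3 replicate 2 they were 0.00 and -0.17.

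PSMB9, PSMB8 and TAP1 lie side by side in the major histocompatibility complex on chromosome 6. PSMB8 and PSMB9 encode catalytic subunits of the immunoproteasome and TAP1 a subunit of the peptide transporter into the ER. PSMB9 had the largest decrease among the 32 tested members, from 22.6 and 24.7 TPM in EV cells to 12.8 and 11.4 TPM with the FCN3 virus. Each FCN3 library lay far below both EV libraries. The log2 fold change was -0.84 ± 0.17 (SE, edgeR adjusted p = 0.0462 unblocked and 2.51e-07 blocked). Its neighbours did not pass: PSMB8 was at 28.7 and 28.8 against 29.8 and 32.4 TPM, and TAP1 at 30.1 and 32.0 against 29.2 and 29.4 TPM, with log2 fold changes of 0.21 (standard error 0.12) and 0.02 (standard error 0.09). In the GENCODE annotation of GRCh37, PSMB9 (32811913 to 32827628, plus strand) overlaps both of these genes, which are on the minus strand. Counts of PSMB9 and PSMB8 were whole in every library, and those of TAP1 were whole in none. The paper names a stranded mRNA library kit, but the strand setting of the counting is not stated.

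Of the other members, IFI35, a binding partner of NMI, was at 19.1 and 19.4 TPM in EV cells and at 23.3 and 21.8 TPM with the FCN3 virus. The groups did not overlap, and the log2 fold change was 0.34 ± 0.14 (SE, edgeR adjusted p = 0.201 unblocked and 0.00652 blocked). IFI6, a small membrane protein with antiviral and anti-apoptotic activity, was at 8.76 and 7.16 against 8.31 and 11.7 TPM. SP110, a nuclear body protein, was at 8.08 and 6.64 against 8.40 and 7.94 TPM, and CMPK2, a mitochondrial nucleotide kinase, stayed between 0.29 and 0.39 TPM. IFI6, SP110 and CMPK2 did not pass in either fit.

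The replicate numbers were also compared. With the virus in the model, edgeR called 7 of the 32 tested members between replicates 1 and 2. This was 21.9%, against 22.2% of all tested genes, a share near the background. MX1 (log2 difference 1.43, replicate 2 over replicate 1), IFIT1 (1.00), IRF9 (0.85) and STAT2 (0.45) were higher in replicate 2, with edgeR adjusted p of 1.46e-05, 0.000568, 9.01e-07 and 5.21e-05, where 11.7% of all genes were called higher. PARP14 (-0.30), SAMHD1 (-0.28) and DTX3L (-0.25) were lower in it, where 10.5% of all genes were. The fibroblast marker sum, which was mostly COL1A1, and the depth given above also differed between the numbers. Their part in this was not tested. For MX1 the difference was 0.79 in log2 CPM between the EV libraries and 1.66 between the FCN3 libraries, and for IRF9 it was 0.60 and 1.05. For IFIT1 it was 0.05 between the EV libraries and 1.65 between the FCN3 libraries. With 1 library for each virus and number, the difference between these differences has no replicate and was not tested.

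**Figure D3:**
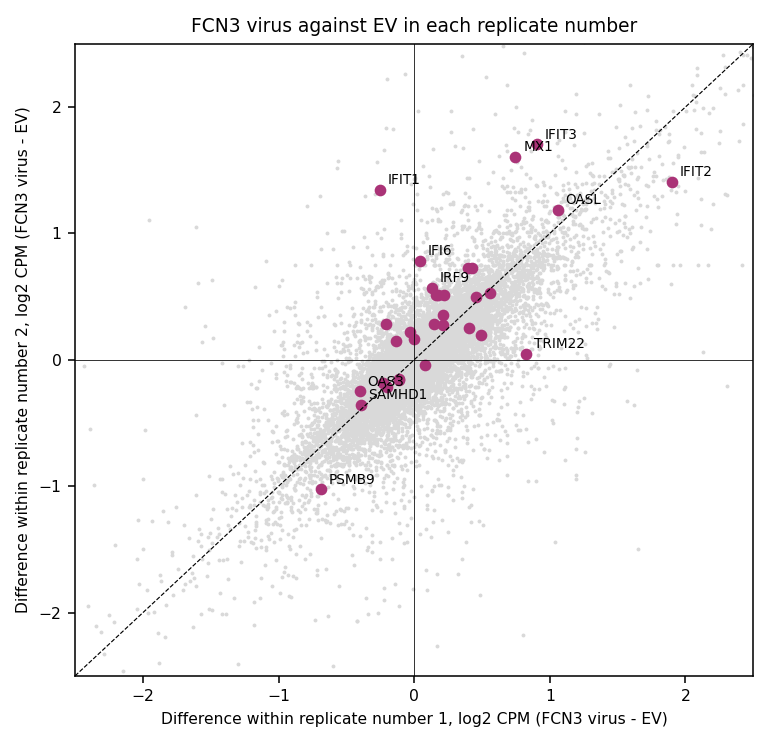
Difference between FCN3 virus and EV in log2 CPM, within replicate number 1 (horizontal) and within number 2 (vertical), for the 32 tested members (purple, some named) over all tested genes (grey; those beyond 2.5 are not drawn); the dashed line marks equal differences. IFIT1 stands apart at -0.25 and 1.35, IFIT2 lies at 1.90 and 1.41, and PSMB9 lies at -0.69 and -1.03.

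The ISRE core was found in windows of members with log2 fold changes from 1.40 (MX1) to -0.33 (OAS3). Among members with a window that passed the filter, 13 of 27 held it (48.1%), and among those under the filter 5 of 7 held it (71.4%): IFI44L, IFI44, IFI27, BST2 and EPSTI1. MX1, IFIT3, IFIT5, PARP14 and DTX3L, which rose with the block, held it. So did TAP1 and HERC5, whose log2 fold changes were 0.02 and -0.13, and OAS3, which fell with the block. No core was found in the windows of DDX58 and IFI35, which rose with the block, or of SAMHD1 and PSMB9, which fell with it. IFIT2 and OASL also rose with it but had no window listed. The GAS-like element TTCNNNGAA, which reads the same on both strands, was found in the windows of 8 of the 34 members (23.5%), among them IRF1 and IRF9, against 7.88% of all windows.

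**Figure D4:**
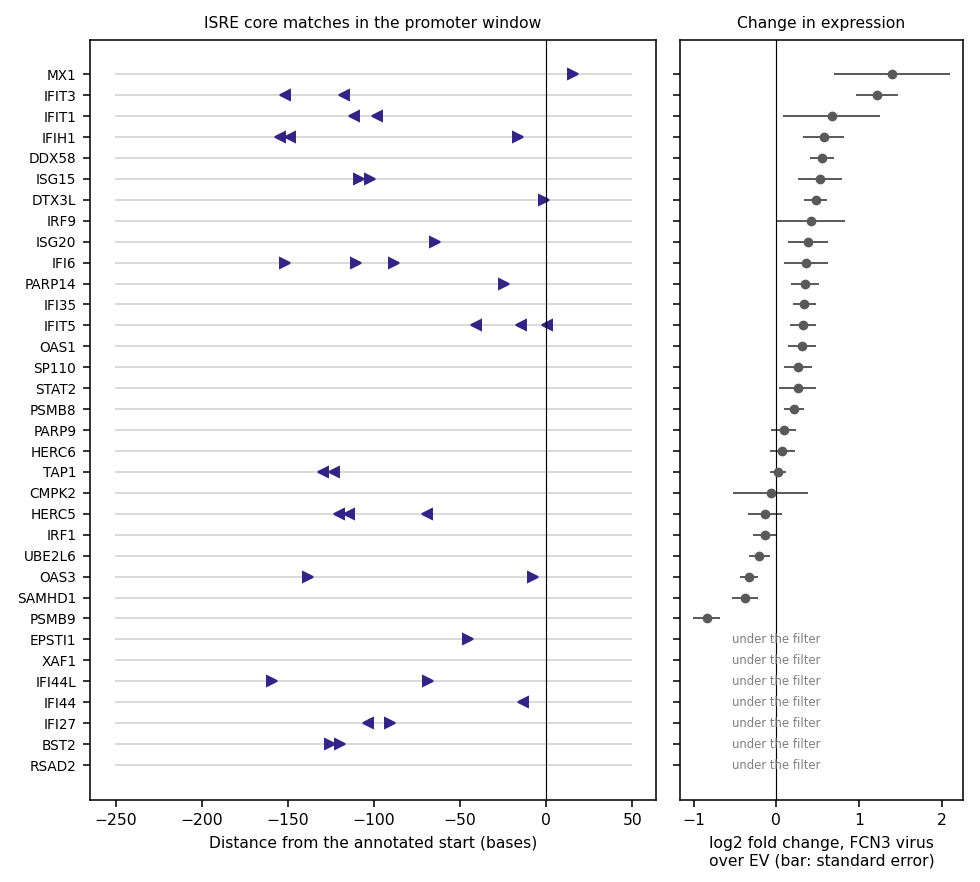
Left, position of ISRE core matches (arrowheads, pointing along the strand that reads GAAA) relative to the annotated start in the promoter windows of 34 members, in bases; right, the log2 fold change (FCN3 virus over EV, edgeR without block, with standard error). Matches occur in rows from MX1 (1.40) to OAS3 (-0.33) and in 5 of the 7 members under the filter.

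Other genes of the pathway were read from lists that are not among the 41 members. None of 21 interferon genes exceeded 13 counts in a library, and 20 of them had at most 3 counts in every library. The exception was IFNE, an epithelial type I interferon, at 0.42 and 0.50 against 0.49 and 0.59 TPM (log2 fold change 0.35 ± 0.49 SE). Among 10 genes of the interferon receptors and the JAK-STAT chain, 0 were called without the block, while with it 1 rose and 2 fell (3 of 10, against 36.2% of all tested genes). Of 6 negative regulators, the block called 2, a share near that of all genes, where the unblocked fit called 0. SOCS3 had the largest change among those called with it, from 38.6 and 47.4 to 50.8 and 57.9 TPM (log2 fold change 0.44 ± 0.13 SE, edgeR adjusted p = 0.116 unblocked and 1.75e-08 blocked).

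Of 11 tested genes of nucleic acid sensing, 0 were called without the block, while 2 rose and 2 fell with it (4 of 11, near the 36.2% of all genes). IFI16, a sensor of DNA, was at 2.59 and 0.93 TPM in EV cells and at 7.96 and 3.89 TPM with the FCN3 virus (log2 fold change 1.75 ± 0.51 SE, edgeR adjusted p = 0.109 unblocked and 4.05e-14 blocked). Of 35 tested other type I interferon-stimulated genes, SLFN5 and TRIM5 rose without the block and 0 fell, and with it 11 rose and 4 fell (15 of 35, against 36.2% of all genes). SLFN5, a Schlafen family gene, was at 3.40 and 4.11 TPM in EV cells and at 45.1 and 33.5 TPM with the FCN3 virus, with a log2 fold change of 3.52 ± 0.20 (SE, edgeR adjusted p = 0.00279). TRIM5, which recognises the capsid of incoming retroviruses, was at 14.2 and 14.8 against 30.2 and 28.1 TPM (log2 fold change 1.15 ± 0.11 SE, edgeR adjusted p = 0.00824). Its gene overlaps TRIM22 on the opposite strand, and TRIM22 did not pass. The median log2 fold change of these 35 genes was 0.14, against 0.31 for the 32 members, a difference that was not tested.

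**Figure D5:**
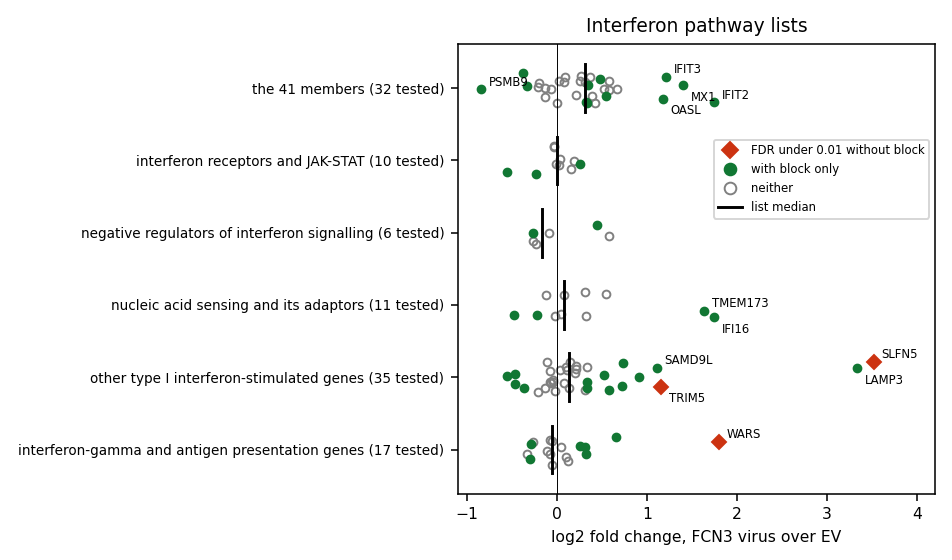
log2 fold change (FCN3 virus over EV, edgeR without block) of the tested genes of each list with more than 1 tested gene, with the list's median as a bar; red diamonds passed an FDR of 0.01 without the block, green circles only with it, open circles in neither fit. The diamonds are SLFN5, TRIM5 and WARS, and the medians of the lists lie between -0.16 and 0.31.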

How the data were processed

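RNA-seq was compared between 2 EV and 2 FCN3-virus libraries of A549. Groups and replicate numbers come from the labels, which do not say whether duplicates are separate cultures, so p-values measure the spread between these libraries. After trimming, the authors used STAR 2.6.1d and hg19 for alignment (submitters' processing notes) and deposited, per gene, RSEM's expected counts (estimated counts, not normalized), TPM (normalized for length and depth) and FPKM, which was not used. The transcripts carry RefSeq accessions. The annotation release and strand setting are not given in the sources used here.

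Expected counts were rounded and tested in R 4.3.3 with edgeR 4.0.16 (TMM, filterByExpr, quasi-likelihood fit without a separate dispersion estimate, Benjamini-Hochberg adjustment over the 14099 of 25192 genes tested, FDR 0.01). The standard error is the absolute log2 fold change over the square root of F. log2 CPM used a prior count of 2. Libraries held 16353554 to 35733735 expected counts. Floors cover counting error only.

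The main fit has no block, since the study's methods name none. Replicate numbers, taken from the labels, were also fitted as a block. That fit takes a further term from the same 4 libraries, so little is left to measure each gene's spread. The difference between replicates 1 and 2 of the EV libraries correlated with that of the FCN3 libraries (r = 0.806 across 8310 genes with an average log2 CPM above 4, which are not independent). Across the 32 tested members, taken without that limit on level, r was 0.538, so the values are not directly comparable. DESeq2 1.42.0, limma 3.58.1 on log2(TPM + 1) and log2(TPM + 0.1), RLE factors, other filters, a separate dispersion estimate, FCN3 left out before normalization, an FDR of 0.05 and each library left out were tried.

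The members and lists were chosen with earlier results of these data known. Full statistics are given for members called in either edgeR fit, and library values for these and the most abundant member of each role; other values named were chosen after they were seen. From the other lists are named genes called without the block and, per list, the largest change among those called with it, apart from results that are not reported here. 6 listed genes were found under older symbols (IL29, IL28A, IL28B, IL28RA, C19orf66 and NT5C3). The receptor and JAK-STAT list and the list of other interferon-stimulated genes share a gene, which is counted in each. Gene locations are from GENCODE on GRCh37, in which 22 of the 41 members overlap another protein-coding or lncRNA gene. Where RefSeq lists several promoter windows for a gene (12 members), the first was used.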

Additional observations from a re-analysis of the deposited data

How the results depend on the processing

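The 32 tested members had no edgeR call at an FDR of 0.01 in the fit without a block, with RLE factors, with other filters, with a separate dispersion estimate, with FCN3 left out before normalization, in limma on TPM, or after leaving out any 1 library. The replicate block gave 12 called members and 5103 called genes, against 0 and 136 without it. DESeq2 gave 1 and 1047, DESeq2 with the replicate block 5 and 2212, and an FDR of 0.05 gave 2 and 1014. Dropping 1 library at a time gave between 92 and 267 called genes, the most without EV replicate 2. With the block, 3 of the receptor and JAK-STAT genes, 2 negative regulators, 4 sensing genes, 15 other interferon-stimulated genes and 7 interferon-gamma and antigen presentation genes were called. Without it these counts were 0, 0, 0, 2 and 1. DESeq2 called 1 receptor or JAK-STAT gene, 1 sensing gene, 6 other interferon-stimulated genes and 1 interferon-gamma or antigen presentation gene.

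The members' median log2 fold change of 0.31 was 0.20 in limma on log2(TPM + 1) and between 0.16 and 0.33 when 1 library was dropped, lowest without FCN3 replicate 2. limma on log2(TPM + 0.1) moved the median of all genes by -0.10. Directions were followed in 15 members, those called between the viruses or between replicate numbers. Without FCN3 replicate 2, 2 of these 15 changed direction: IFIT1 from 0.67 to -0.28 and IRF9 from 0.42 to -0.17. The remaining tested members were not followed in this way. Over all leave-one-out fits IFIT1 ran from -0.28 to 1.40 and IRF9 from -0.17 to 0.88. Of 210 values for 15 members under the alternatives, 190 kept direction and side of the threshold, 18 passed it (with the replicate block or in DESeq2) and 2 changed direction. The cause was not tested. Members at a few counts could not be compared at this depth.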

Other observations

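Genes induced mainly by interferon-gamma, and those of antigen presentation, were listed apart. Of 24 such genes 17 were tested, and 1 rose without the replicate block. This was WARS, the cytosolic tryptophanyl-tRNA synthetase, a gene of tRNA charging that is also known as interferon-inducible. It was at 111 and 107 TPM in EV cells and at 349 and 353 TPM with the FCN3 virus (log2 fold change 1.80 ± 0.08 SE, edgeR adjusted p = 0.00123). With the block 5 rose and 2 fell (7 of 17, near the 36.2% of all tested genes). The 2 that fell were TAP2 and TAPBP: TAP2 was at 24.9 and 24.3 against 17.9 and 17.1 TPM, and TAPBP at 39.2 and 37.8 against 29.2 and 29.8 TPM. HLA-C and HLA-E, class I genes, were among those that rose, by 0.32 and 0.31 on the log2 scale. 7 of the 24 genes had at most 3 counts in every library. The median of the tested genes was -0.05, against 0.31 for the 32 interferon-stimulated members, and the difference was not tested.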
